A study of Homo sapiens with 2 samples.

Results

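The loci of 7 transcription factors of the Mullerian duct and endometrium (PAX8, PAX2, SOX17, EMX2, FOXA2, LHX1 and WT1) were examined for H3K4me3, trimethylation of lysine 4 on histone H3, in HEC-1-B, an established line of uterine adenocarcinoma cells. All deposited H3K4me3 regions within 8 kb of 1 hg19 start site per gene were taken as members. The sites lie on chromosome 2 at 114036498 (PAX8), chromosome 10 at 102505468 (PAX2) and 119301956 (EMX2), chromosome 8 at 55370495 (SOX17), chromosome 20 at 22565101 (FOXA2), chromosome 17 at 35294772 (LHX1) and chromosome 11 at 32457081 (WT1). This gave 9 of 19782 regions on the assembled chromosomes in the wild-type list (WT below) and 12 of 19647 in the ZNF143 knockout list (KO below). The study compared wild-type HEC-1-B cells with cells labelled ZNF143KO, a knockout of the promoter-binding zinc finger protein ZNF143, by ChIP-seq with 1 H3K4me3 antibody and 1 library per genotype. Both were grown in the same medium with no further treatment given, and the labels do not say whether the knockout line is 1 clone. Neither list measures ZNF143 itself, so the genotype labels were not checked. With 1 library per genotype, no difference below has a replicate check and no test between genotypes was made.

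H3K4me3 is laid down around the start sites of active genes and over unmethylated CpG-rich promoters, and it can also sit on silent developmental genes that are held ready by opposing marks. The Mullerian ducts are paired embryonic tubes that form the oviducts, the uterus and the upper vagina. LHX1, PAX2 and EMX2 are needed to build them, while PAX8, SOX17 and FOXA2 are known from the epithelium of the adult tract, where FOXA2 marks the uterine glands. PAX8 is used in pathology as a marker of Mullerian epithelia, and WT1 is known from the embryonic urogenital ridge, the mesothelium and the endometrial stroma. Presence of the mark in these data is not a measurement of transcription.

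RefSeq promoters were used for 4 of the 7 genes, with none for SOX17, FOXA2 and LHX1. Those shown are given for their CpG content. Each runs 5′ to 3′ from 250 bases before to 50 bases after an annotated start in GRCh38.p14, and capitals mark CpG dinucleotides. GRCh38.p14 positions were not matched to the hg19 regions. PAX8 lies on the minus strand at chr2:113278872-113279171. PAX2 has 2 starts on the plus strand, at chr10:100735146-100735445 and chr10:100745332-100745631. EMX2 lies on the plus strand at chr10:117542496-117542795, and the outermost of the 4 WT1 starts lies on the minus strand at chr11:32435490-32435789.
PAX8: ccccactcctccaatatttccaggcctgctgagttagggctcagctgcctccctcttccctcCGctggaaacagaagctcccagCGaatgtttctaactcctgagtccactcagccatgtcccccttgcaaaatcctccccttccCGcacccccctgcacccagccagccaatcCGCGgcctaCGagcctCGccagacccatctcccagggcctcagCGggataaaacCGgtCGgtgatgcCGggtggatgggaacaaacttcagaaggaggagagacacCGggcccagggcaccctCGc
PAX2, first start: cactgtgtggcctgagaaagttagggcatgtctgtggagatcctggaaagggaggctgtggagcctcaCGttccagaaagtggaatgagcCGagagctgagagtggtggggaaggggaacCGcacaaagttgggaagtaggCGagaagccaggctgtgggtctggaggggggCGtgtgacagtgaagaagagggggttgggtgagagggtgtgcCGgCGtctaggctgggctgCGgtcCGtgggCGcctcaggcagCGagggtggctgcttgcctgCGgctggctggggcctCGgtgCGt
PAX2, second start: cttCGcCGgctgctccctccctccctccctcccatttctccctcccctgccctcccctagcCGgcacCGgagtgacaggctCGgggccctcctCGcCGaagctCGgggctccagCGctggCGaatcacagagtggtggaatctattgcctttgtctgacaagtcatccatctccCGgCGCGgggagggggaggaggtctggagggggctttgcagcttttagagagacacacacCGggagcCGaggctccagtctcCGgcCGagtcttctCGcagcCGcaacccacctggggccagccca
EMX2: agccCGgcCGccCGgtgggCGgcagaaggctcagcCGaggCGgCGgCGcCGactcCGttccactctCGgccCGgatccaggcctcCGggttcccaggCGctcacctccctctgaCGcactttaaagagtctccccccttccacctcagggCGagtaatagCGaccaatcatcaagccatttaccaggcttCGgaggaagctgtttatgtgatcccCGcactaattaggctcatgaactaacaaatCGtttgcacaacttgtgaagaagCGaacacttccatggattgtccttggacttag
WT1: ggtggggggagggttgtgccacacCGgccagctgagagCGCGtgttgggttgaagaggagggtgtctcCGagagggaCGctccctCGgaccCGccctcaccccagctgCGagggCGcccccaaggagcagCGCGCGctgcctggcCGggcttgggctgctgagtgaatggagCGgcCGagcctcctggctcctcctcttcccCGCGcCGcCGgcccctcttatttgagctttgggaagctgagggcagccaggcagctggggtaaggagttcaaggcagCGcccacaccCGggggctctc

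These promoters were not alike in CpG content. EMX2 held 21 CpG dinucleotides, with an observed-to-expected ratio of 0.85 that stood at the 73.7 percentile of 35114 RefSeq promoters of the same length. PAX8 held 13, with a ratio of 0.48 at the 45.2 percentile. The PAX2 starts held 14 and 19, with ratios of 0.56 and 0.58, and the WT1 start held 21 with a ratio of 0.57. The median over all promoters was 14 CpG dinucleotides and a ratio of 0.58. Searched on both strands, ACTACAA, the start of the ZNF143 recognition sequence, was in 0 of the 8 promoters listed for these 4 genes and in 2.77% of all promoters. TATAAA was in 0 of the 8 and in 11.5% of all, and CCAAT was found at 2 places in PAX8, at 1 in EMX2 and in 34.6% of all promoters. A match or its absence describes the letters of this window only.

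Each of the 7 loci carried at least 1 H3K4me3 region in both lists, so none was unmarked in either genotype. How many other gene starts have a region within 8 kb was not counted, so this count has no background share beside it. A region covered the start site itself at 3 loci in WT (SOX17, EMX2 and FOXA2) and at 4 in KO, where PAX8 was added because its region reached 3 bp past the start. All 9 wild-type member regions were overlapped by a knockout region, against 94.5% of all wild-type regions. Of the 12 knockout member regions 9 were overlapped by a wild-type region, against 90.3% of all knockout regions. The other 3 lay at PAX2 (2) and SOX17 (1).

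**Figure D1:**
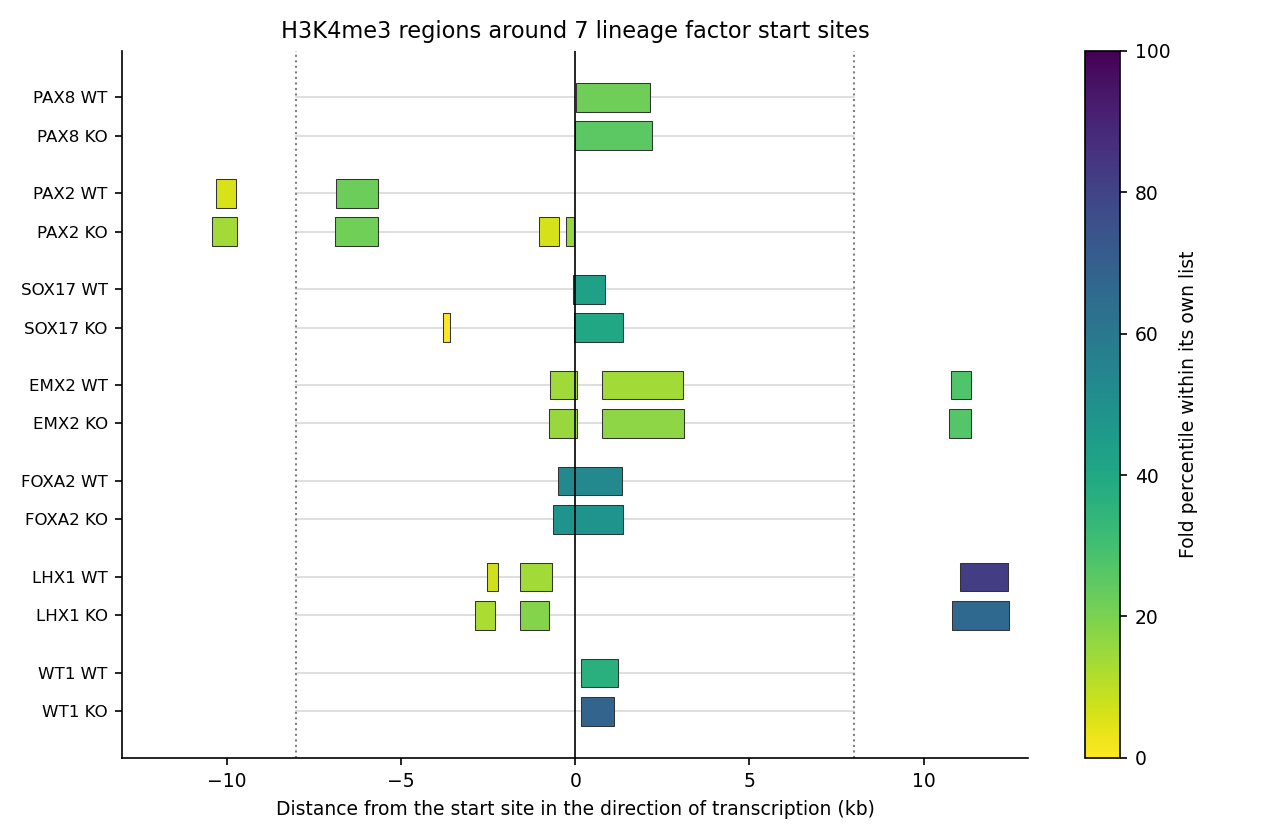
Regions called within 13 kb of each start site, drawn by distance from the start in the direction of transcription (kb), with 1 row per locus and list (WT, wild type; KO, ZNF143 knockout). Bars are regions, their colour is the percentile of the deposited fold within its own list, and dotted lines mark the 8 kb window. The knockout rows of PAX2 and SOX17 hold 3 regions that their wild-type rows lack.

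Fold here is the authors' ratio of the fragment pileup at the summit to a local rate, called the background rate below. No control library is named, and whether this rate holds signal of the mark itself was not tested. A percentile is the share of all regions of the same list with a value at or below it. By fold, 8 of the 9 member regions in WT and 11 of the 12 in KO lay below the middle of their list. The median fold percentile was 22.0 in WT, with a range from 7.27 to 52.8, and 17.7 in KO, with a range from 0.53 to 68.1. By −log10 q, the deposited measure of confidence in a region, member percentiles ran from 5.62 to 59.0 (WT) and from 3.16 to 64.2 (KO). The summit pileup, the number of fragments stacked at the summit as recovered from the fold and p columns, had median percentiles of 40.7 (WT) and 38.9 (KO). The KO medians include the 3 regions without a WT overlap, at fold percentiles of 6.27, 15.4 and 0.53. The medians of the lists thus cover unlike sets and do not compare the genotypes.

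**Figure D2:**
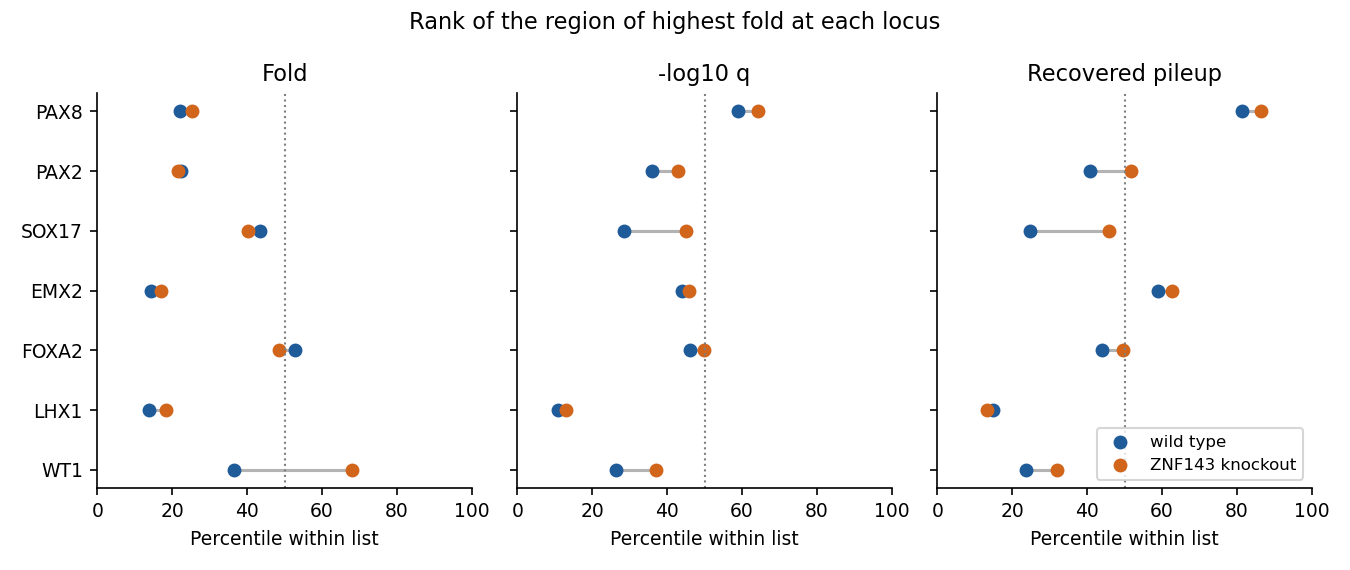
Percentile within its own list of the region of highest fold at each locus, for 3 measures (fold, −log10 q and pileup), in wild type (blue) and knockout (orange). By fold the wild-type points run from 13.7 (LHX1) to 52.8 (FOXA2), and PAX8 stands at 22.0 by fold but at 81.4 by pileup.

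Regions of 1 list separated by up to 1 kb were then merged into domains. The median of the widest domain at each of the 7 loci was 1847 bp in WT and 2015 bp in KO, against 1137 and 1229 bp over all domains. The EMX2 domain stood at the 99.9 width percentile in both lists. Only 14 of 16417 wild-type and 19 of 16881 knockout domains were wider. PAX8, FOXA2 and LHX1 lay between the 88.0 and the 94.7 percentile in both lists, while SOX17, PAX2 and WT1 lay between 32.7 and 60.4. The LHX1 rank rests on the merging, since its widest single region measured 922 bp in WT and 841 bp in KO. As a description of shape, the widest 10% of wild-type domains had a median best fold of 9.56 and a median best pileup of 379 fragments.

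**Figure D3:**
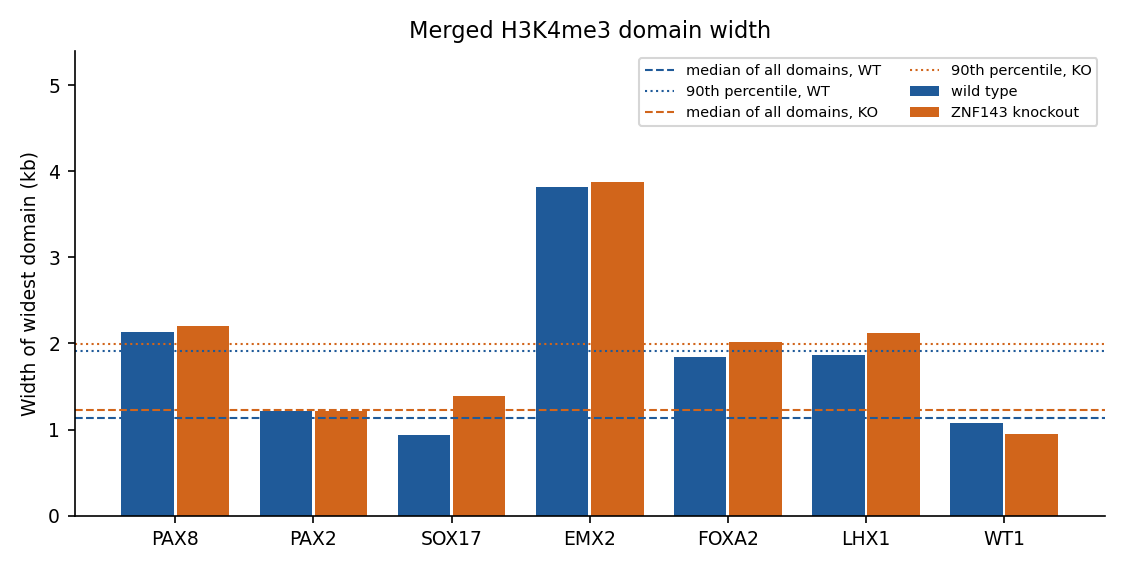
Width in kb of the widest merged domain that touches each 8 kb window, in wild type (blue) and knockout (orange), with the median (dashed) and 90th percentile (dotted) of all domains of each list. EMX2 stands far above both lines, and WT1 lies under the median in both lists.

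PAX8, the paired-box factor that marks Mullerian epithelia, had the highest pileup of the 7 loci. Its single wild-type region, chr2:114034344-114036480, was 2137 bp wide and began 18 bp downstream of the start site. The knockout region, chr2:114034299-114036501, was 2203 bp wide. The summit pileup was 405 fragments in WT and 806 in KO, at the 81.4 and 86.4 percentile. The deposited fold was 6.44 and 6.74, at the 22.0 and 25.1 percentile. The local background rate under the fold was 44.2 times the lowest rate of the wild-type list and 36.5 times that of the knockout list, the highest of the member regions in each. A high pileup and a low fold were thus measured in the same region. Whether the rate there includes the region's own fragments was not tested, so the low fold alone does not show weak marking. Among wild-type domains within 10% of its width, 56.1% had a lower best pileup and 1.55% a lower best fold. No other region was called within 45 kb, the nearest lying 45831 bp upstream in WT.

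FOXA2, a forkhead factor of the uterine glands, had the highest fold of the 7 loci in WT. Its region, chr20:22563761-22565607, was 1847 bp wide and spanned the start from 506 bp upstream to 1340 bp downstream. In the knockout list, chr20:22563720-22565734 was 2015 bp wide. The fold was 11.9 in WT and 11.0 in KO, at the 52.8 and 48.4 percentile. The pileup was 152 and 350 fragments, at the 43.9 and 49.7 percentile, and was lower than at most domains of like width: 8.03% of those in WT and 11.1% in KO had less. FOXA2 stood alone, with no wild-type region closer than 464211 bp. The knockout list held a weak region 93576 bp downstream with 16 fragments. LINC00261 and LNCNEF touch the FOXA2 window in RefSeq.

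SOX17, an SRY-box factor of the endometrial epithelium, was marked over its start and first part of the gene in both genotypes. The wild-type region on chromosome 8 from 55370428 to 55371361 was 934 bp wide, and the knockout region from 55370463 to 55371855 was 1393 bp wide. The pileup was 52 fragments in WT and 294 in KO, at the 24.7 and 45.9 percentile. The fold was 10.4 and 9.75, at the 43.3 and 40.3 percentile. The local background rate was 4.10 fragments per base in WT and 29.3 in KO. The knockout list held a further region of 178 bp, 3606 bp upstream, with 58 fragments and a fold of 2.04. Its −log10 q of 4.45 placed it at the 3.16 percentile. LOC105375841 and LOC100129098 touch the SOX17 window in RefSeq.

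LHX1, a LIM-homeobox factor required for duct formation, was the weakest locus by pileup. Both lists held 2 regions upstream of the start and none over it. In the wild-type list chr17:35292252-35292553 had 18 fragments and chr17:35293194-35294115 had 22. In the knockout list the corresponding counts were 25 and 31. The folds were 4.15 and 5.02 in WT and 4.37 and 5.38 in KO. Merged, the pair spanned 1864 bp in WT and 2116 bp in KO, of which regions covered 1224 and 1411 bp. Fewer than 1% of domains of like width had a lower best pileup, 0.36% in WT and 0.20% in KO. In RefSeq the divergent transcript LHX1-DT lies beside the start, so these upstream regions cannot be assigned to 1 of the 2 genes.

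A much stronger region lay just outside the LHX1 window. It began 11047 bp downstream of the start in WT, with 485 fragments and a fold of 17.0, at the 91.3 percentile by pileup. The knockout region there had 851 fragments and a fold of 13.7. The gene next downstream of LHX1 in RefSeq is AATF, a ubiquitous factor of ribosome synthesis and apoptosis, and LHX1 itself was not marked at that level. At EMX2 the nearest region outside the window lay 10772 bp downstream with 17 fragments, and at PAX2 9722 bp upstream with 73.

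PAX2, the paired-box factor of the duct and the kidney, was marked away from the given start in wild-type cells. The only wild-type region in the window, chr10:102498596-102499815, lay from 6872 to 5653 bp upstream, with 130 fragments and a fold of 6.60. The knockout region there, chr10:102498581-102499797, had 379 fragments and a fold of 5.92. A pair of regions next to the start were called in KO alone. Of these, chr10:102504418-102504999 had 50 fragments and a fold of 3.46, and chr10:102505202-102505432, ending 36 bp before the start, had 53 and a fold of 4.81. They stood at the 18.8 and 19.5 percentile of the knockout list by pileup. Divided by 1.86, the median knockout-to-wild-type pileup ratio of all paired regions, they correspond to 26.9 and 28.5 fragments. Of wild-type regions, 16.8% and 17.5% had no more than that. This divisor comes from shared regions and is not a ratio of read depth. The lowest background rates, 1.40 in WT and 3.25 in KO, differ by a larger factor and would give lower counts. The wild-type list reached down to 7 fragments, but a region left out of it is not shown to lack the mark.

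Further separate regions lay upstream of PAX2 beyond the window. Regions from 10321 to 9722 bp and from 16475 to 14976 bp upstream had 73 and 87 fragments in WT and 293 and 280 in KO. RefSeq gives PAX2 2 start sites 10186 bp apart in GRCh38.p14, both printed above. Which of them the upstream regions flank was not settled without an hg19 annotation.

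EMX2, an empty-spiracles homeobox factor of the reproductive tract, had the widest domain of the 7 loci when gaps of up to 1 kb were joined. With a gap of 3 kb the PAX2 domain was wider, at 4669 bp in WT and 4759 bp in KO, and without merging the widest EMX2 region measured 2311 and 2368 bp. It consisted of 2 regions in each list, 1 over the start and 1 within the gene, with a gap between them. In the wild-type list chr10:119301222-119302020 had 261 fragments and a fold of 5.18, and chr10:119302728-119305038 had 256 and a fold of 5.10. In the knockout list the pileups were 503 and 521 and the folds 4.89 and 5.09. The whole domain measured 3817 bp in wild-type and 3881 bp in knockout cells. All 4 folds lay at or under the 16.9 percentile, and all 4 pileups between the 58.3 and the 62.5 percentile. The 28 wild-type domains within 10% of the EMX2 width had a median best fold of 6.15. The antisense transcript EMX2OS touches the same window in RefSeq, and regions carry no strand.

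WT1, the Wilms tumour zinc finger gene, carried 1 region inside the gene in each list and none over the given start. The wild-type region, chr11:32455852-32456927, ran from 154 to 1229 bp downstream, and the knockout region, chr11:32455978-32456928, from 153 to 1103 bp. The pileup was 48 fragments in WT and 139 in KO, at the 23.7 and 31.8 percentile. The fold was 9.20 and 13.98, at the 36.5 and 68.1 percentile. The nearest region elsewhere lay 148277 bp upstream, and WT1-AS, an antisense transcript, touches the window in RefSeq.

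The genotypes were then compared over the 9 pairs of member regions that had exactly 1 partner in each list. A shift of more than 10 percentile points by fold, or of more than 2-fold in pileup relative to the median of all 16501 such pairs, was counted as a move. That median ratio was 1.86. The lowest background rates, 1.40 in WT and 3.25 in KO, differ by a larger factor, and centring on them would lower every log2 ratio below. By fold, 1 of the 9 rose past 10 points, WT1, against 8.87% of all pairs, and 0 fell past it, against 9.44%. By pileup, 1 of the 9 was more than 2-fold higher in the knockout, SOX17, against 2.5% of all pairs, and 0 were more than 2-fold lower, against 1.98%. The median fold shift of the 9 was 2.93 points and their median centred log2 pileup ratio 0.13, where all pairs had medians of −0.01 and 0. With 1 pair of 9 past each limit, these counts name single loci and say nothing of the group.

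**Figure D4:**
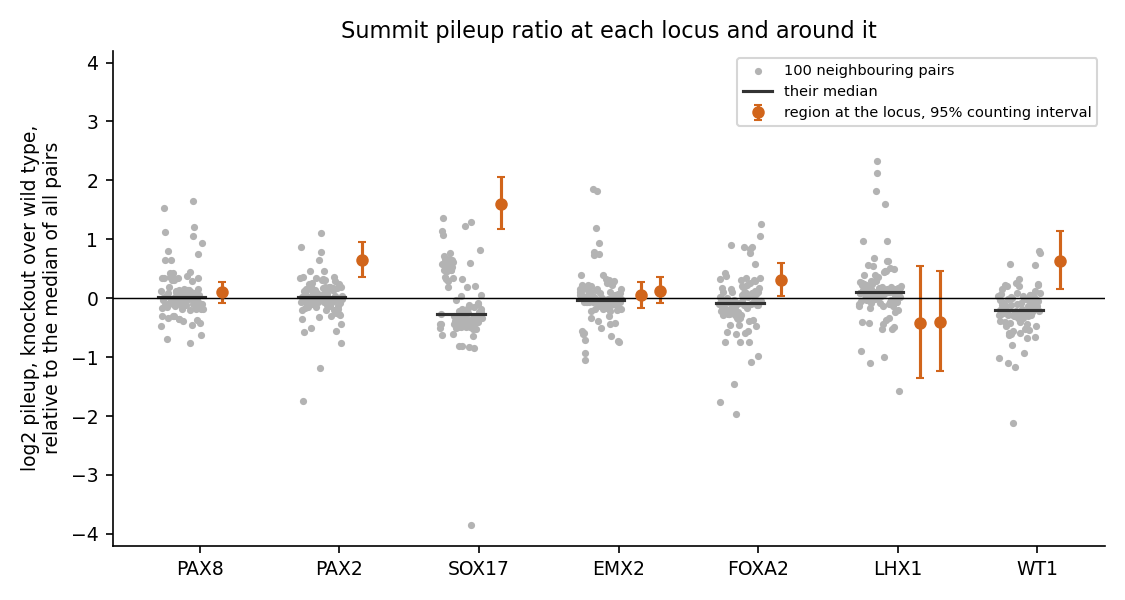
Log2 ratio of knockout to wild-type summit pileup, less the median of all pairs, for the 9 paired member regions (orange, bars give the exact 95% counting interval) and the 100 nearest pairs on the same chromosome (grey, black line the median). SOX17 at 1.60 lies above all 100 of its neighbours, whose median is −0.26.

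SOX17 had the largest pileup difference among the 9. The ratio of 5.65 was 1.60 on the log2 scale after centring, with an exact 95% counting interval from 1.18 to 2.06 that covers neither culture nor immunoprecipitation variation. It exceeded or equalled 99.3% of all pairs. Among 1265 pairs of like mean pileup (within 20%), 12 had a higher ratio. The 50 nearest pairs on either side had a median of −0.26 with quartiles of −0.41 and 0.46, and all 100 lay below SOX17. These neighbours did not share 1 level. An unbroken run of pairs further upstream had positive ratios, while those next to SOX17 on both sides were mostly negative. The other 603 pairs of chromosome 8 had a median of −0.35. The next pairs outside the window had pileups of 47 and 62 upstream (−0.49) and of 10 and 19 downstream (0.03). Ranked by pileup SOX17 moved up 21.1 points and by −log10 q 16.6 points, while by fold it moved by −3.08 points. The background rate at SOX17 differed 7.14-fold between the libraries, against a median of 2.04 over all pairs.

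WT1 had the largest rank shift by fold, 31.6 points, at or above that of 98.8% of all pairs. Among 985 pairs of like mean pileup, 19.9% rose by more than 10 points and 97.8% shifted by no more than WT1. Ranked by −log10 q the shift was 10.7 points and by pileup 8.12. Its centred log2 pileup ratio was 0.64, with an interval from 0.16 to 1.14, and 93.96% of all pairs had no higher ratio. The 100 neighbouring pairs had a median of −0.20, and 98% of them lay at or below WT1. The WT1 domain was at the same time narrower in the knockout, 951 against 1076 bp, a ratio of 0.88. Only 5.28% of 15413 domain pairs had a ratio as low.

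At PAX2 the pileup ratio was above the median of all pairs at each of the 3 upstream regions shared by the lists. The paired region in the window had a centred log2 ratio of 0.65, with an interval from 0.36 to 0.95, at or above 94.1% of all pairs and 97% of its neighbours, whose median was 0.02. Its summit lay at −6399 bp from the start in WT and at −6062 bp in KO, so the ratio compares different bases. The regions that begin 10321 and 16475 bp upstream had ratios of 1.11 and 0.79. The rank shift of the region in the window depended on the measure: it was −0.81 points by fold, 6.88 by −log10 q and 11.1 by pileup. FOXA2 had a ratio of 0.31, with an interval from 0.03 to 0.59, above a neighbouring median of −0.08. Its rank shift also turned sign with the measure, from −4.47 points by fold to 3.86 by −log10 q and 5.81 by pileup.

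At the other loci every interval spanned 0. PAX8 had a centred log2 ratio of 0.10, with an interval from −0.08 to 0.27, and a fold shift of 3.19 points. The EMX2 regions had ratios of 0.05 and 0.13. At LHX1 the ratios were −0.42 and −0.40, and with 18 to 31 fragments per summit their intervals ran from −1.35 to 0.54 and from −1.23 to 0.46.

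Of the 7 widest domains, 0 were more than 1.5 times wider in the knockout, against 7.65% of all domain pairs. SOX17 came nearest, at 1.49, and LHX1 followed at 1.14. The median ratio of the 7 was 1.03, against 1.06 over all domain pairs. The knockout library was the deeper, with a lowest background rate of 3.25 against 1.40 fragments per base, and width was not separated from depth.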

How the data were processed

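H3K4me3 ChIP-seq was analysed from 2 region lists in the 10-column narrowPeak layout, 1 per genotype, with groups taken from the genotype label. Bowtie2, MACS2, SAMtools 1.12, deepTools and the builds GRCh37 and hg19 are named in the submitters' processing notes, without roles or settings, and a control library is not named there. The separate name prefixes of the deposited lists show 1 call per library. The deposited fold column was read as a ratio of summit pileup to local rate, and the deposited −log10 p and −log10 q columns as such. The deposited score column equals 10 times the −log10 q without decimals, within 1 unit, and was not used.

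The members and lists were chosen with earlier results of these data known. All 7 genes are named, with every region in their windows. Start sites come with the choice of members. The strands of PAX8, PAX2, EMX2 and WT1 were checked against the RefSeq promoter table, and those of the other genes are general knowledge. Positions are hg19, counted from 1. Regions outside the assembled chromosomes were left out. The pileup was solved as the whole number for which fold equals pileup plus 1 over rate plus 1, and the p column the Poisson upper tail. In a check on 2000 simulated regions per list, 100% were recovered. These were built with the same formulas, so the check covers the solving only. For the deposited regions, the −log10 p computed from the solved pileup had a largest relative error of 8.56e-06 in WT and 1.17e-05 in KO. Pairs overlap by at least 1 bp with 1 partner in each direction. Each pileup is that of the summit in its own list, and the summits of a pair can lie at different bases. Intervals of pileup ratios are exact binomial (Clopper-Pearson) at 95% and cover counting error only. Total read counts were not used here. Percentiles, widths and shifts carry no test. Alternatives were other windows, gaps, thresholds, rank measures and overlaps. The software was Python 3.11.15 with matplotlib 3.10.9, scipy 1.17.1, pandas 2.3.3 and numpy 2.4.6.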

Additional observations from a re-analysis of the deposited data

How the results depend on the processing

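No paired analysis was possible because WT and KO had 1 library apiece, which also means that no replicate could be left out. The count of marked loci stayed at 6 or 7 in each list for windows of 2, 5 and 20 kb and for a −log10 q of at least 5. It was 3 in WT and 4 in KO when a region had to cover the start. In WT, PAX2 was the locus lost at 2 and 5 kb. A 20 kb window gave 14 wild-type regions. The median wild-type domain width became 1220 bp without merging, 1220 bp with a gap of 500 bp and 1224 bp as covered bases in the window, since the LHX1 domain consists of 2 regions. The median fold percentile of the 7 loci, 22.4 in WT and 25.1 in KO, became 23.1 and 26.1 over all sequences, 35.9 and 45.1 by −log10 q, and 40.7 and 49.7 by pileup. The −log10 q percentile became 37.8 and 47.2 over all sequences. The median rank shift by fold, 2.71 points, was 5.21 when ranked by −log10 q, 5.81 when ranked by pileup and 1.37 with a reciprocal overlap of 50%. The 2.71 is the EMX2 value, which sets the knockout region within the gene against the wild-type region over the start. Those regions had the highest fold of their lists at EMX2 but do not overlap. The overlapping EMX2 pairs had shifts of 1.37 and 2.93 points. The median centred log2 pileup ratio of the 7 loci, 0.31, was 0.39 when centred on the nearest pairs and 0.31 with that overlap. The cause of these moves was not tested, other than where the definition gives it.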
